A study of Mus musculus with 12 samples.

Results

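A set of 10 genes for the storage and release of fat was described in mouse aorta, namely Lpl, Fabp4, Pnpla2, Lipe, Plin1, Plin2, Plin4, Cidec, Dgat2 and Pck1. They were chosen by name from the 32245 gene symbols of the expression matrices, and all 10 were found there. Their levels were read in 4 classes of aortic cells, gated on marker genes that include none of the 10, in each of 4 gene expression libraries.

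Fat travels in blood as triglyceride in lipoproteins. Lipoprotein lipase (Lpl), held on capillary endothelium by Gpihbp1, releases fatty acids from it, and these are carried in the cell by binding proteins such as Fabp4. Fat cells rebuild the fatty acids into triglyceride, with Dgat2 for the last step and Pck1 for the glycerol backbone, and keep it in a lipid droplet coated by perilipins (Plin1, Plin2, Plin4) and enlarged by Cidec. Pnpla2 and Lipe are the lipases that break the stored triglyceride down again. In an atherosclerotic aorta these genes are of interest in the fat around the vessel, in endothelium that takes up fatty acids and in macrophages that fill with lipid, where Plin2 is the usual droplet coat.

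The study kept male C57BL/6J mice labelled ApoE-/-, meant to lack the lipoprotein ligand apolipoprotein E, from the age of 8 weeks for 24 weeks, with 18 mice in a group. The group labelled Healthy received normal food and saline. The other groups received food with 1% cholesterol and 10% fat, with saline (AS, for atherosclerosis), with saline to week 12 and methazolamide, a carbonic anhydrase inhibitor, at 25 mg/kg from week 13 to week 24 (MTZ-treated), or with methazolamide at this dose through all 24 weeks (MTZ-preventive). Per group 6 aortas were pooled into 1 single-cell library, so differences between groups have no replicate error and were not tested. The labels spell the drug methoxazolamide.

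In RefSeq's annotation of GRCm38.p6 the genes lie at chr8:68880555-68906932 (Lpl), chr3:10204342-10208616 (Fabp4), chr7:141455188-141460743 (Pnpla2), chr7:25379527-25398486 (Lipe), chr7:79721164-79732904 (Plin1), chr4:86626910-86670217 (Plin2), chr17:56100587-56109948 (Plin4), chr6:113424634-113435760 (Cidec), chr7:99153663-99182713 (Dgat2) and chr2:173153073-173159274 (Pck1). Promoter sequence was matched for 7 of the 10, in 9 promoters. The 250 bases before each start were searched on both strands for AGGTCA, the hexamer of many nuclear receptors, for its direct repeat with 1 base between the copies (DR1, which contains it), for TTGCNNAA, a form of C/EBP sites, and for TATAAA. Only the 3 promoters shown, each on the minus strand, held any of these letters, in capitals. Plin1 at chr7:79732777-79733026 held 2 copies of TTGCNNAA, Cidec at chr6:113434765-113435014 held 1, and Plin2 at chr4:86670060-86670309 held 1 AGGTCA, read there on the other strand as TGACCT. They are shown because Plin1 and Cidec are the droplet genes of fat cells, while Plin2 is the droplet gene that macrophages also carried.
Plin1: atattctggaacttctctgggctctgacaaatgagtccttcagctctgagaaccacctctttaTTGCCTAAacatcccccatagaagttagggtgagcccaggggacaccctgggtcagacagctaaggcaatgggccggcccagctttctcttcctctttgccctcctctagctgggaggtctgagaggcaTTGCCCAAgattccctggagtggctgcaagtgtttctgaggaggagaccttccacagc
Cidec: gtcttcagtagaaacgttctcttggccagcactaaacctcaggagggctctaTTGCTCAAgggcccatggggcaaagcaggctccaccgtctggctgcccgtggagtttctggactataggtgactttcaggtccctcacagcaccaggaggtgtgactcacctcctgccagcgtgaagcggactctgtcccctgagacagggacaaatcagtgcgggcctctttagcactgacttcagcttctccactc
Plin2: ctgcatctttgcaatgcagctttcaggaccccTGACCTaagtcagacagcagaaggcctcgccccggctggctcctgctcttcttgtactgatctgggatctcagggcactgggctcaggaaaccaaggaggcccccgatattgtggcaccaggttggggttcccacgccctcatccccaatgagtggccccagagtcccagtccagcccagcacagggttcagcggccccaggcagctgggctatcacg
Of all 32851 promoters, 9.56% held TTGCNNAA, 14.0% AGGTCA, 0.0335% the direct repeat and 12.4% TATAAA in a window of the same length. A match of letters is not a binding site, and nothing was read from its absence in the other promoters.

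After limits on cells, 2160 (AS) to 14186 (MTZ-preventive) cells and 3763352 to 32626174 unique molecular identifiers (UMIs, each 1 captured transcript) remained per library. Any pair of libraries shared 209 to 805 deposited barcodes, 3.01% to 3.68% of the smaller library. Levels were UMIs of a gene for every 1000000 UMIs of all genes in those cells (CPM), not divided by gene length, and are listed in the order labelled Healthy, AS, MTZ-treated, MTZ-preventive. All 95% intervals (Poisson for levels, exact binomial for ratios and shares) cover counting error only. Apoe itself stood at 722, 11.2, 12.6 and 8.46 CPM over all cells. The library labelled Healthy thus carried a transcript that the other 3 nearly lacked, which goes against its ApoE-/- label, and it is called the library labelled Healthy throughout.

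The adipocyte-marker gate, which asks for a UMI of at least 3 of 12 fat cell markers, held 32, 323, 18 and 891 cells. Of these, 81.2%, 76.8%, 100% and 84.7% had a UMI of the fat hormone Adipoq, and 94.4% to 100% had one of Cfd, an abundant secreted fat cell protease. Lep was seen in at most 3.1% of them and Ucp1, the marker of brown fat, in at most 2.5%. Other markers of the gate were less even between libraries. Thrsp was seen in 100, 35.6, 83.3 and 43.7% of the cells and Gpd1 in 84.4, 27.2, 38.9 and 42.6%. Retn was instead lowest in the library labelled Healthy, at 62.5, 89.2, 94.4 and 83.3%. The cells were not clean fat cells, since 93.8%, 67.8%, 61.1% and 74.5% also had UMIs of at least 2 markers of another class. Fibroblast markers led these in the library labelled Healthy (87.5% of cells, against 25.7% in AS) and endothelial markers in AS (44.9%, against 6.25%). Endothelial cells numbered 850, 484, 1435 and 1868, macrophages 35, 99, 123 and 24, and fibroblasts 2081, 399, 2088 and 3886. With doublets kept, macrophages numbered 45, 101, 144 and 81. With under 20 adipocyte-marker cells, MTZ-treated entered no comparison in that class under these limits on cells.

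Fat cell transcripts were also met outside the gate, and unequally between libraries. Cfd stood at 11.6, 2388, 143 and 2320.1 CPM in endothelial cells, 64.5, 2220.4, 240.1 and 1794 CPM in fibroblasts and 2.04, 450.1, 2.16 and 175 CPM in B, T and NK cells. At least 1 adipocyte gate marker was seen in 23.6%, 66.3%, 17.3% and 62.0% of endothelial cells, in 5.71%, 53.5%, 1.63% and 16.7% of macrophages, and in 4.52%, 57.6%, 7.04% and 56.0% of fibroblasts. In each of these classes both measures were higher in AS and MTZ-preventive than in the other pair of libraries. Their part in the differences between libraries was not tested, and cells without such a marker are described separately.

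Across classes, 8 of the 10 genes had their highest level in adipocyte-marker cells in all 4 libraries, the exceptions being Fabp4 and Plin2. Cidec and Pck1 marked these cells most sharply in the library labelled Healthy, where their level was 353-fold and 484-fold that of the next class. In AS the same ratios were 5.39 and 4.69, with smooth muscle cells next. Fabp4 stood higher in endothelial cells than in adipocyte-marker cells in 3 of the 4 libraries, by 1.03 to 1.56-fold. Plin2 in macrophages was level with adipocyte-marker cells in AS (1.0-fold) and above them in MTZ-treated (1.54-fold).

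**Figure D1:**
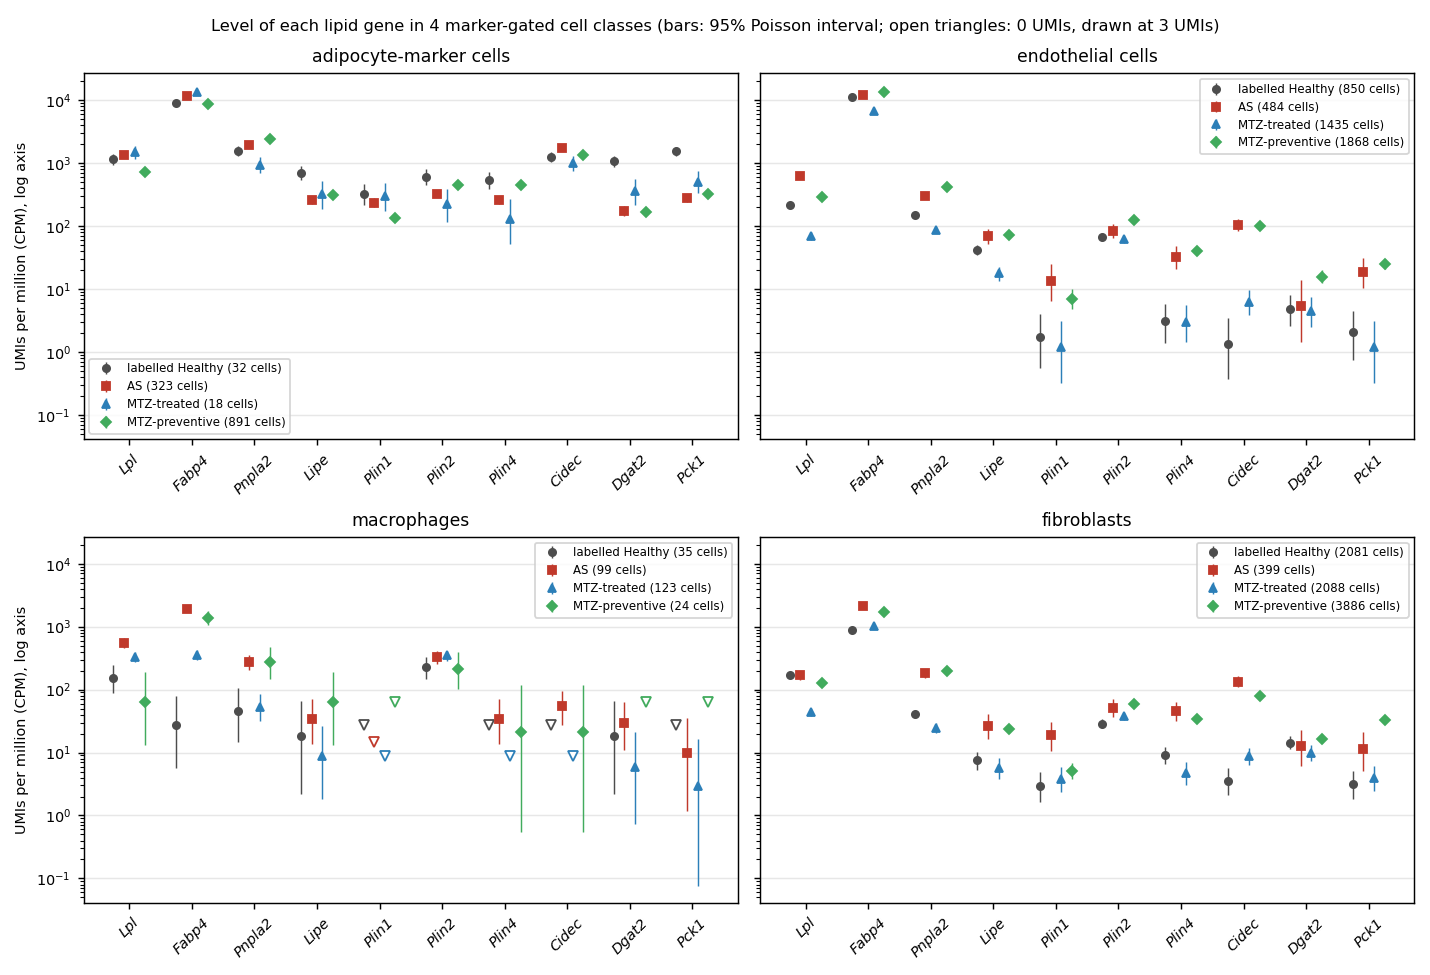
Levels of the 10 genes in CPM (log axis) in 4 marker-gated classes, 1 point per library with its 95% Poisson interval, and open triangles for genes with 0 UMIs, drawn at 3 UMIs. In endothelial cells and fibroblasts the AS and MTZ-preventive points stand above the other 2 for Pnpla2, Plin4, Cidec and Pck1, while in adipocyte-marker cells Dgat2 and Pck1 are highest in the library labelled Healthy.

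In adipocyte-marker cells, Dgat2 and Pck1, which serve the building of triglyceride, were lower in AS than in the library labelled Healthy, while Lpl and Fabp4 were within 2-fold. Dgat2, which adds the last fatty acid to triglyceride, stood at 1068, 176, 358 and 169 CPM over the 4 libraries. Pck1, which supplies glycerol for it in fat cells, stood at 1536, 278, 509 and 325 CPM. For both, the library labelled Healthy was well above the other 3, whose levels lay between 169 and 509 CPM. AS was 6.06-fold lower (95% interval 4.54 to 8.05) for Dgat2 and 5.52-fold lower (95% interval 4.37 to 6.96) for Pck1.

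The lipases of the droplet parted from each other. Lipe, hormone-sensitive lipase, stood at 708, 258, 320.2 and 317 CPM and was 2.74-fold lower (95% interval 2.0 to 3.71) in AS than in the library labelled Healthy. Pnpla2, adipose triglyceride lipase, stood at 1572, 1979, 942 and 2439.9 CPM and was 1.26-fold higher (95% interval 1.05 to 1.52) in AS, within the 2-fold limit. Pnpla2 was thus highest in MTZ-preventive and Lipe in the library labelled Healthy. The droplet coat gene Plin4 stood at 539.9, 261, 132 and 457 CPM and was 2.07-fold lower (95% interval 1.45 to 2.88) in AS. Plin2 (612, 329.8, 226 and 446 CPM) was 1.86-fold lower and Plin1 (324, 237, 301 and 134 CPM) 1.37-fold lower in AS, both within the limit. Cidec, which fuses droplets, stood at 1259.8, 1751, 998 and 1348 CPM, and AS was 1.39-fold higher (95% interval 1.14 to 1.71). Among the genes for uptake and transport, Lpl stood at 1152, 1343, 1488 and 736 CPM and Fabp4 at 9011, 11811, 13599 and 8735 CPM, and neither differed between AS and the library labelled Healthy by 2-fold.

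In all, 4 of 10 genes were at least 2-fold lower in AS than in the library labelled Healthy and none was as much higher, where 9.71% of 3956 genes measured in these cells were lower by that much and 18.2% higher. The median log2 ratio of the 10 was -0.67, against 0.08 over all genes. Plin4 was the least stable of the 4, since its log2 ratio of -1.05 became -0.71 with TMM factors, -0.40 as a mean over cells and 0.33 with looser limits on cells, where Lipe was also at -0.06. Lipe was at -0.91 as a mean over cells. Dgat2 and Pck1 stayed past 2-fold lower under both settings, and 2 genes became at least 2-fold higher under each, Pnpla2 and Cidec with looser limits and Fabp4 and Cidec as a mean over cells. The comparison rests on 32 cells of the library labelled Healthy. The part in it of their fibroblast markers, and of the gate markers that differ between libraries, was not tested.

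Between MTZ-preventive and AS, none of the 10 genes differed by 2-fold in adipocyte-marker cells, where 9.77% of 9315 genes were higher by that much and 6.28% lower, and the median log2 ratio was 0.08 against 0.04 over all genes. The widest differences were in Lpl, 1.82-fold lower (95% interval 1.69 to 1.97) in MTZ-preventive, in Plin1, 1.77-fold lower (95% interval 1.46 to 2.12), and in Plin4, 1.75-fold higher (95% interval 1.49 to 2.06). Dgat2 was 1.04-fold lower (95% interval 0.845 to 1.27) and Pck1 1.17-fold higher (95% interval 0.999 to 1.37), each with an interval that includes 1. In the 104 AS and 227 MTZ-preventive cells with under 2 markers of any other class, Plin1 passed the limit at 2.21-fold lower, the 9 other genes did not, and Lpl was 1.85-fold lower. The 18 MTZ-treated cells are described by their levels alone.

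The other genes of the pathway, 46 on 6 lists, differed by list in these cells. Against the library labelled Healthy, 8 of 34 measured were at least 2-fold higher in AS and 12 lower, where 18.2% and 9.71% of all genes were. Genes for making fatty acids and triglyceride gave 6 of the 12 and none of the 8, out of 10 measured. Of the 7 measured on the list for lipoprotein hydrolysis and fatty acid uptake, 2 were higher (Gpihbp1 and Cd36) and 2 lower (Angptl8 and the carrier Fabp5), of which all but Cd36 are named after their values were seen. At least 2 endothelial markers were seen in 44.9% of the AS cells of this gate, against 6.25% in the library labelled Healthy. Their part in the ratios of Gpihbp1 and Cd36 was not tested. Scd1, which desaturates stearate, stood at 5723, 1343, 4068 and 542 CPM and Fasn, fatty acid synthase, at 2904, 742, 885 and 146 CPM. Both were lower in AS than in the library labelled Healthy and lower again in MTZ-preventive, where 5 of the 10 synthesis genes were past 2-fold below AS. Among the lipolysis genes Abhd5, the activator of Pnpla2, stood at 48.0, 158, 169.5 and 210.0 CPM and G0s2, its inhibitor, at 612, 201, 226 and 337 CPM, opposite in direction between AS and the library labelled Healthy. The regulator Srebf1 stood at 300.0, 83.6, 283 and 117 CPM. Hilpda, a droplet protein that also restrains lipolysis, stood at 36.0, 134, 113 and 310.1 CPM, from 3 UMIs in the library labelled Healthy. The 48.0 CPM of Abhd5 in that library likewise rests on few UMIs. In MTZ-preventive against AS, 3 of 42 pathway genes were higher and 9 lower, where 9.77% and 6.28% of all genes were.

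In endothelial cells, Lpl was the 1 gene past 2-fold in all 3 comparisons as reported, the last of them only narrowly. It stood at 217, 626, 69.9 and 295 CPM, highest in AS and lowest in MTZ-treated. AS was 2.88-fold higher (95% interval 2.55 to 3.25) than the library labelled Healthy, MTZ-treated was 8.95-fold lower (95% interval 7.63 to 10.5) than AS, and MTZ-preventive was 2.12-fold lower (95% interval 1.91 to 2.36). A UMI of Lpl was seen in 23.4, 34.5, 10.9 and 30.5% of endothelial cells, and in 13.2, 28.9, 7.39 and 20.6% after each cell was thinned to 1000 UMIs. In B, T and NK cells, which should lack Lpl, these shares were 0.219, 10.0, 0 and 1.76% and, thinned, 0.0994, 5.00, 0 and 0.775%. Median depths were 2448.5, 1353, 1638 and 1956.5 UMIs in endothelial cells and 2164, 1818, 1573 and 1884 in B, T and NK cells, of which AS held only 20. Looser limits on cells gave 1044 endothelial cells in AS in place of 484, but 686 in the library labelled Healthy in place of 850. That library then lost 3776 cells as doublets in place of 1218, so the looser set does not hold all cells of the reported one. With these limits the log2 ratio of Lpl was 0.65 in place of 1.53 for AS against the library labelled Healthy and -0.89 in place of -1.09 for MTZ-preventive against AS. The latter also missed 2-fold as a mean over cells (-0.85) and with the B and T cell level subtracted (-0.999).

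Fabp4, the fatty acid carrier, was the most heavily counted of the 10 in endothelial cells, at 11308, 12135, 6707 and 13607 CPM, and its UMIs made 90.6% to 96.4% of those of all 10 genes there. Its ratios stayed within 2-fold, with MTZ-treated 1.81-fold lower (95% interval 1.77 to 1.85) than AS. Pnpla2 stood at 150.3, 307, 86.5 and 424 CPM and was 2.04-fold higher (95% interval 1.73 to 2.40) in AS than in the library labelled Healthy and 3.55-fold lower (95% interval 2.97 to 4.24) in MTZ-treated than in AS. Lipe stood at 42.0, 69.7, 17.7 and 73.4 CPM, with MTZ-treated 3.93-fold lower (95% interval 2.66 to 5.81) than AS. Both lipases were thus higher in AS and MTZ-preventive than in the other libraries. Plin2 (66.6, 84.4, 61.5 and 125 CPM) stayed within 2-fold in all 3 comparisons.

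Among the measured genes, Cidec, Plin4 and Pck1 gave the largest ratios between AS and the library labelled Healthy in endothelial cells. Cidec stood at 1.37, 105, 6.30 and 99.5 CPM, from 4 UMIs in the library labelled Healthy and 78 in AS, and AS was 76.5-fold higher (95% interval 28.7 to 288). MTZ-treated was 16.6-fold lower (95% interval 10.1 to 28.3) than AS. Plin4 stood at 3.07, 32.2, 3.0 and 39.8 CPM and Pck1 at 2.05, 18.8, 1.20 and 25.5 CPM, with AS 10.5-fold higher and 9.16-fold higher than the library labelled Healthy. Cfd split the libraries in the same way and was 206-fold higher (95% interval 147 to 298) in AS. Plin1 (1.71, 13.4, 1.20 and 7.06 CPM) and Dgat2 (4.78, 5.36, 4.50 and 15.8 CPM) had under 20 UMIs in the comparisons of AS with the library labelled Healthy and with MTZ-treated, and Pck1 in the latter. In the former Pck1 only just reached 20 UMIs, and it fell below them with at least 4 markers in the gate. The levels of Pck1 and Cidec in B, T and NK cells were 0.163, 26.5, 0 and 2.39 CPM and 0.245, 52.9, 0 and 7.65 CPM, where the AS values are 1 UMI of Pck1 and 2 of Cidec in 20 cells. For Pck1 the AS level to be subtracted, 26.5 CPM, exceeded the 18.8 CPM of endothelial cells, so nothing was left in AS. The log2 ratio for AS against the library labelled Healthy, 3.20 as reported, was then set to 0 by rule. That value rests on that 1 UMI and is not a measured equality.

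Counted together, 5 of 8 measured genes were at least 2-fold higher in AS than in the library labelled Healthy, and none lower, where 3.85% of 10209 genes were higher and 12.2% lower, with a median log2 ratio of 1.28 against -0.16 over all genes. In MTZ-treated against AS 5 of 7 were lower and none higher, where 5.47% of 10000 genes were lower and 7.23% higher, with medians of -1.98 and 0.01. In MTZ-preventive against AS 1 of 10 was higher and 1 lower, where 9.19% and 3.07% of 10903 genes were. These were Dgat2, 2.95-fold higher (95% interval 1.11 to 11.1) from 4 UMIs in AS and with a log2 ratio of -0.38 in place of 1.56 under looser limits on cells, and Lpl. All 3 comparisons use the same AS library, so a level that stands out there shows in each. Leaving out every cell with an adipocyte gate marker took the first count from 5 of 8 to 2 of 5. These 2 were Lpl and Fabp4, of which only Lpl was among the 5 reported. Fabp4 fell more in the library labelled Healthy than in AS when these cells were left out. Pnpla2 came within 2-fold, while Cidec, Plin4 and Pck1 had too few UMIs left to be measured. Shares over all genes were not computed for these cells.

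Lpl and Fabp4 were concentrated in the endothelial cells with a UMI of Gpihbp1, the anchor of lipoprotein lipase. In the 314, 225, 362 and 874 cells with such a UMI Lpl stood at 455, 1065, 199 and 551 CPM, and in the 536, 259, 1073 and 994 cells without one at 32.2, 183, 25.8 and 72.0 CPM. The ratio was 14.1-fold (95% interval 10.7 to 19.1) for the library labelled Healthy, 5.81-fold (95% interval 4.49 to 7.64) for AS, 7.72-fold (95% interval 5.76 to 10.5) for MTZ-treated and 7.66-fold (95% interval 6.54 to 9.0) for MTZ-preventive. The intervals did not reach 1 in any library, and AS had the highest Lpl on both sides of the split. Fabp4 stood at 21205, 18703, 16284 and 24389 CPM with a Gpihbp1 UMI and 3605, 5507, 3430.0 and 4226 CPM without, a ratio of 3.40 to 5.88. Cells with the UMI were deeper in the library labelled Healthy (median 2963 UMIs against 2095.5) and close in depth in MTZ-preventive (1942 against 1967.5). Cfd was not higher with Gpihbp1 in AS, at 1785 CPM with and 2997 CPM without the UMI, but it was in MTZ-preventive, at 3363 and 1413 CPM. Cidec lay with Cfd in this, at 80.1 and 129 CPM in AS and 137 and 66.8 CPM in MTZ-preventive. Plin2 was higher with the UMI in all 4 libraries, by 1.72 to 4.0-fold.

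**Figure D2:**
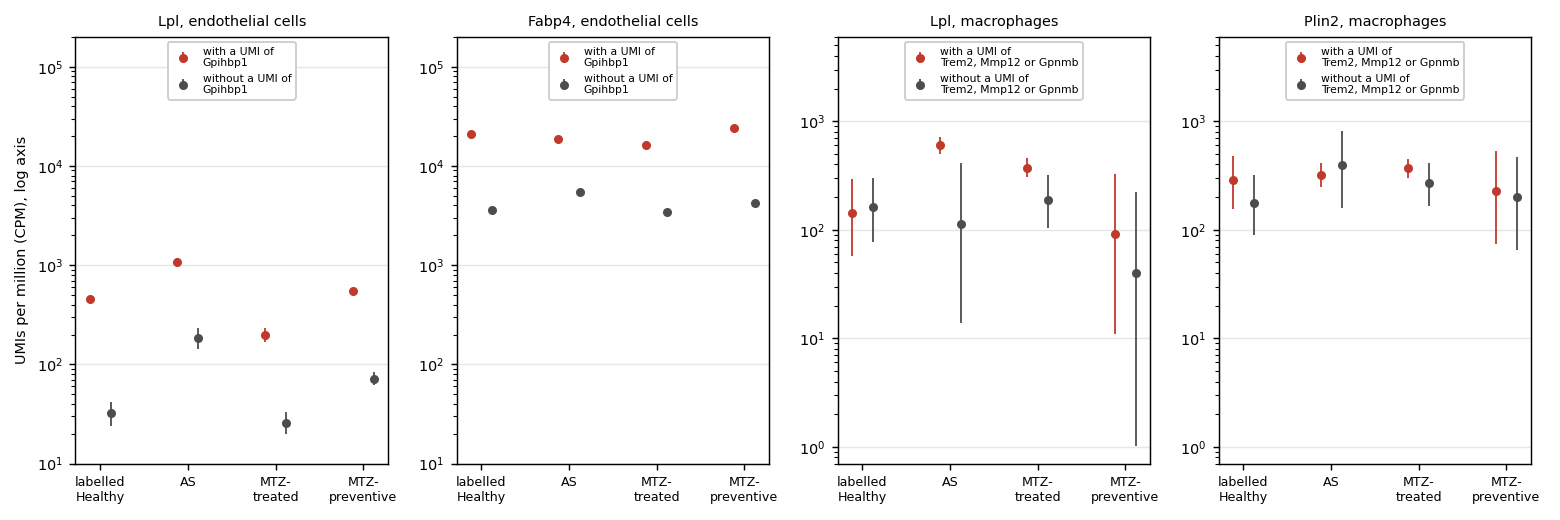
Levels in CPM (log axis) of Lpl and Fabp4 in endothelial cells with and without a UMI of Gpihbp1, and of Lpl and Plin2 in macrophages with and without a UMI of Trem2, Mmp12 or Gpnmb, with 95% Poisson intervals, 1 pair of points per library. The endothelial points with Gpihbp1 lie above those without in every library. In macrophages of AS the pair lies apart for Lpl (602 and 114 CPM, the latter from few UMIs) but not for Plin2.

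Among the other pathway genes of endothelial cells, Gpihbp1 stood at 793, 1329.5, 324 and 1017 CPM and Cd36, a fatty acid translocase, at 652, 1441, 314 and 948 CPM, both highest in AS and lowest in MTZ-treated like Lpl. Angptl4, an inhibitor of the lipase, stood at 50.5, 48.2, 44.1 and 97.3 CPM and was at least 2-fold higher in MTZ-preventive than in AS. Lmf1, a maturation factor of the lipase that is named after its values were seen, was the 1 gene of this list at least 2-fold lower in AS than in the library labelled Healthy, where 3 of 7 were higher. Mgll, which completes lipolysis, stood at 419, 587, 250.4 and 489 CPM. Fabp5, the other carrier of endothelium, stood at 366, 314, 258 and 334 CPM, within 2-fold over the libraries. Of the pathway genes, 11 of 36 were at least 2-fold higher and 1 lower in AS than in the library labelled Healthy, 1 of 34 was higher and 14 lower in MTZ-treated than in AS, and 3 of 40 were higher and 3 lower in MTZ-preventive than in AS. Over all genes these shares were 3.85% and 12.2%, 7.23% and 5.47%, and 9.19% and 3.07%.

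In macrophages the droplet coat gene Plin2 stayed within 2-fold in every comparison, while Fabp4, Lpl and Pnpla2 did not. Plin2 stood at 226, 329, 348 and 214 CPM, from 25, 67, 117 and 10 UMIs, and its ratio was 1.46-fold higher (95% interval 0.909 to 2.41) in AS, 1.06-fold higher (95% interval 0.778 to 1.45) in MTZ-treated against AS, and 1.54-fold lower (95% interval 0.786 to 3.35) in MTZ-preventive against AS. All 3 intervals include 1, and with at least 2 or at least 4 markers in the gate Plin2 passed 2-fold lower in MTZ-preventive than in AS. A UMI of Plin2 was seen in 42.9, 38.4, 34.1 and 29.2% of macrophages (22.9, 22.2, 17.9 and 12.5% thinned), against 1.05, 0, 3.10 and 2.07% of B, T and NK cells (0.417, 0, 2.33 and 1.09% thinned). The median depth of the macrophages was 3133, 1578, 1622 and 1532 UMIs.

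Lpl in macrophages stood at 153, 559.7, 334 and 64.2 CPM, from 17, 114, 112 and 3 UMIs, and was seen in 22.9, 52.5, 27.6 and 12.5% of cells (11.4, 38.4, 13.8 and 8.33% thinned). AS was 3.65-fold higher (95% interval 2.18 to 6.48) than the library labelled Healthy. MTZ-treated lay between them, 1.68-fold lower (95% interval 1.28 to 2.20) than AS and within the 2-fold limit, and MTZ-preventive was 8.72-fold lower (95% interval 2.91 to 42.9) than AS. The last value rests on the 24 cells left after doublet removal. With doublets kept MTZ-preventive held 81 macrophages and AS 101, and Lpl was again at least 2-fold lower. The first value became a log2 ratio of 0.55 with looser limits on cells. These limits left 23 macrophages in the library labelled Healthy in place of 35. Fabp4 stood at 27.1, 1934, 360.3 and 1369 CPM, from 3 UMIs in the library labelled Healthy and 394 in AS, a ratio of 71.5 (95% interval 24.3 to 348). MTZ-treated was 5.37-fold lower (95% interval 4.37 to 6.64) than AS, a log2 ratio of -2.42 that became -0.76 with looser limits on cells. The level in B, T and NK cells was 47.3, 662, 183 and 264 CPM, above that of macrophages in the library labelled Healthy and below it in the others. Pnpla2 stood at 45.1, 270.0, 53.6 and 278 CPM and split the libraries in the same way, AS being 5.99-fold higher (95% interval 2.42 to 19.2) than the library labelled Healthy from 5 UMIs there.

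The other 6 genes had under 20 UMIs in every comparison of macrophages. Plin1 had 0 UMIs in all 4 libraries, which allows up to 27.1, 14.7, 8.93 and 64.2 CPM at 3 UMIs. Cidec had 0, 11, 0 and 1 UMIs, Plin4 0, 7, 0 and 1, Lipe 2, 7, 3 and 3, Dgat2 2, 6, 2 and 0, and Pck1 0, 2, 1 and 0. Of the 4 genes measured, 3 were at least 2-fold higher and none lower in AS than in the library labelled Healthy, where 21.8% of 2112 genes were higher and 13.1% lower, with median log2 ratios of 2.22 and 0.21. In MTZ-treated against AS 2 of 4 were lower and none higher, where 8.53% of 3389 genes were lower and 7.79% higher. In MTZ-preventive against AS 1 of 4 was lower and none higher, where 21.6% of 1739 genes were lower and 10.4% higher.

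Macrophages with a UMI of Trem2, Mmp12 or Gpnmb, genes of lipid-laden macrophages, numbered 13 of 35, 87 of 99, 79 of 123 and 13 of 24. Trem2 and Mmp12 are also markers of the macrophage gate. Lpl stood at 602 CPM in such cells and at 114 CPM, from 2 UMIs, in the other 12 cells of AS, a ratio of 5.28-fold (95% interval 1.43 to 44.2), and at 375 and 189 CPM in MTZ-treated, a ratio of 1.98-fold (95% interval 1.13 to 3.76). In the library labelled Healthy it was 142 CPM with and 162 CPM without. For Plin2 the intervals of the same ratio include 1, at 322 and 399 CPM in AS, a ratio of 0.808-fold (95% interval 0.369 to 2.10), and 371 and 269.7 CPM in MTZ-treated, a ratio of 1.37-fold (95% interval 0.843 to 2.35). Fabp4 lay the other way, at 1708 CPM with and 4329 CPM without in AS. In MTZ-treated, where cells with these genes were deeper (median 2183 UMIs against 1356.5), Fabp4 was 344 and 418 CPM.

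Of the other pathway genes in macrophages, 6 of 11 measured were at least 2-fold higher and none lower in AS than in the library labelled Healthy. Over all genes 21.8% were higher and 13.1% lower. The carrier Fabp5 stood at 18, 260.2, 456 and 171 CPM, with 2 UMIs in the library labelled Healthy. Among genes that release and export cholesterol, lysosomal acid lipase (Lipa) stood at 36.1, 133, 122 and 107 CPM, the exporter Abcg1 at 36.1, 147, 98.3 and 107 CPM and Npc2 at 1146, 819.9, 979.7 and 963 CPM, the first 2 from 4 UMIs each in the library labelled Healthy. Cd36 stood at 135, 368, 107 and 85.6 CPM and the endothelial gene Gpihbp1 at 0, 172, 2.98 and 85.6 CPM, both with their highest value in AS, where 35.4% of macrophages had at least 2 endothelial markers against 2.86% in the library labelled Healthy. In MTZ-treated against AS 1 of 19 was higher and 4 lower, where 7.79% and 8.53% of all genes were. In MTZ-preventive against AS 2 of 11 were lower, a share near the 21.6% of all genes.

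In fibroblasts 7 of the 10 genes were at least 2-fold higher in AS than in the library labelled Healthy, and 8 lower in MTZ-treated than in AS. Cidec stood at 3.57, 134, 8.74 and 80.1 CPM, from 18, 107, 46 and 729 UMIs. AS was 37.5-fold higher (95% interval 22.7 to 65.8) than the library labelled Healthy and MTZ-treated 15.4-fold lower (95% interval 10.8 to 22.2) than AS. Plin1 stood at 2.98, 18.8, 3.80 and 5.16 CPM and Plin4 at 9.13, 45.1, 4.75 and 34.0 CPM, with AS 6.32-fold higher and 4.94-fold higher than the library labelled Healthy. For Cidec and Plin4, AS and MTZ-preventive stood together above the other pair of libraries.

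The lipases went the same way. Pnpla2 stood at 40.5, 182, 24.9 and 195 CPM, AS being 4.49-fold higher (95% interval 3.60 to 5.58) than the library labelled Healthy and MTZ-treated 7.30-fold lower (95% interval 5.73 to 9.32) than AS. Lipe stood at 7.54, 26.3, 5.70 and 23.6 CPM, with ratios of 3.49-fold higher and 4.62-fold lower. Fabp4 stood at 871, 2168, 1018 and 1702 CPM, 2.49-fold higher (95% interval 2.35 to 2.63) in AS and 2.13-fold lower (95% interval 2.02 to 2.25) in MTZ-treated than in AS. Pck1 stood at 3.18, 11.3, 3.99 and 33.2 CPM, from 16, 9, 21 and 302 UMIs, and was the 1 gene at least 2-fold higher in MTZ-preventive than in AS, by 2.94-fold (95% interval 1.53 to 6.49), a log2 ratio of 1.56 that became 0.53 with looser limits on cells. The level of B and T cells, which in AS is 1 UMI of Pck1 in 20 cells, exceeded that of AS fibroblasts. With it subtracted nothing was left in AS, which was set at the bound of 3 UMIs. The log2 ratio of Pck1 then went from -1.50 to 0.085 for MTZ-treated against AS. For AS against the library labelled Healthy it went from 1.83 to 0, the value set by rule where the bound gives no direction. Lpl parted from the rest, at 170.3, 168, 43.7 and 128 CPM, with AS 1.01-fold lower (95% interval 0.844 to 1.23) than the library labelled Healthy and MTZ-treated 3.84-fold lower (95% interval 3.08 to 4.78) than AS. Plin2 (28.8, 51.4, 37.6 and 59.1 CPM) and Dgat2 (14.3, 12.5, 9.88 and 16.7 CPM) stayed within 2-fold throughout.

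The 7 of 10 genes higher in AS, with none lower, compare with 4.23% of 11599 genes higher by 2-fold than in the library labelled Healthy and 14.7% lower, and the median log2 ratio was 1.82 against -0.16 over all genes. The 8 of 10 lower in MTZ-treated than in AS compare with 5.41% of 10972 genes, and none higher with 7.45%, with medians of -2.08 and 0.01. In MTZ-preventive against AS 1 of 10 was higher (Pck1) and 1 lower (Plin1, 3.64-fold lower), where 10.4% and 3.87% of 12388 genes were. In fibroblasts with no UMI of an adipocyte gate marker, 0 of 7 measured genes were higher in AS than in the library labelled Healthy. There 1 was lower, namely Lpl, which was not among the 7 reported. In MTZ-treated against AS 1 of 7 was lower, again Lpl, and in MTZ-preventive against AS 0 of 8 were past 2-fold. Shares over all genes were not computed for these cells.

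Within fibroblasts, Lpl was higher in cells with a UMI of Pi16 or Clec3b, genes of the outer adventitia, in the library labelled Healthy, at 178 CPM against 56.1 CPM, a ratio of 3.18-fold (95% interval 2.0 to 5.38). In MTZ-preventive it was 132 CPM against 87.4 CPM, and in AS and MTZ-treated the intervals of the ratio include 1. The share of fibroblasts with a UMI of Prg4 or Cxcl13 was 3.08%, 54.4%, 24% and 57.5%. In AS, Cidec stood at 93.2 CPM with and 205 CPM without such a UMI, and Cfd at 1678 and 3153 CPM. The fat cell genes were thus lower in the AS cells with Prg4 or Cxcl13. Fabp4 in AS was 1848 and 2717 CPM. Of the other pathway genes, 13 of 39 were higher and 1 lower in AS than in the library labelled Healthy, 1 of 38 higher and 13 lower in MTZ-treated than in AS, and 3 of 41 higher and 4 lower in MTZ-preventive than in AS. Over all genes these shares were 4.23% and 14.7%, 7.45% and 5.41%, and 10.4% and 3.87%. G0s2, the inhibitor of Pnpla2, stood at 114, 17.6, 81.9 and 86.0 CPM, lowest in AS from 14 UMIs, and Abhd5, its activator, at 31.8, 74.0, 30.2 and 68.4 CPM.

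Cidec and Fabp4 were set against Cfd, the most heavily counted fat cell marker. In AS there were 3.73 UMIs of Cidec per 100 of Cfd in adipocyte-marker cells, 4.38 in endothelial cells, 3.87 in macrophages and 6.04 in fibroblasts. In MTZ-preventive there were 3.28 in adipocyte-marker cells, 4.29 in endothelial cells and 4.46 in fibroblasts, and 33.3 in macrophages from 1 UMI of Cidec. The ratio was not constant over the other libraries either. It was 1.75 in adipocyte-marker cells, 4.39 in endothelial cells and 3.64 in fibroblasts of MTZ-treated, and 3.16, 11.8 and 5.54 in the same classes of the library labelled Healthy, where endothelial cells held 4 UMIs of Cidec. Fabp4 varied far more against Cfd, since endothelial cells held 508 UMIs of it per 100 of Cfd in AS and 97391 in the library labelled Healthy.

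**Figure D3:**
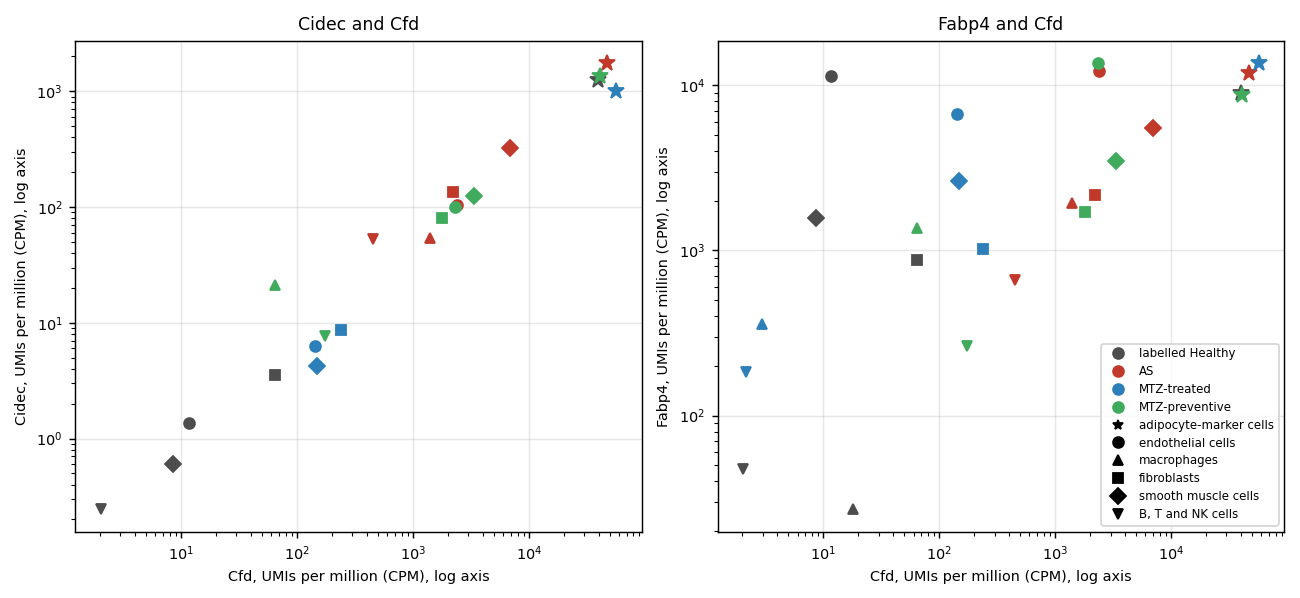
Level of Cidec (left) and Fabp4 (right) against that of Cfd, in CPM on log axes, 1 point per class (shape) and library (colour). A class with 0 UMIs of the gene in a library has no point, as for Cidec in macrophages of the library labelled Healthy. The Cidec points climb with Cfd from B, T and NK cells to adipocyte-marker cells, whereas the Fabp4 points of endothelial cells lie between 6707 and 13607 CPM while Cfd runs from 11.6 to 2388 CPM.

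The comparisons were then read again in cells with no UMI of any adipocyte gate marker, a choice made after the levels of Cfd were seen. It kept 649, 163, 1187 and 709 endothelial cells, 33, 46, 121 and 20 macrophages and 1987, 169, 1941 and 1711 fibroblasts. In these endothelial cells Lpl stood at 81.2, 287, 37.5 and 121 CPM, so AS was 3.53-fold higher (95% interval 2.65 to 4.67) than the library labelled Healthy, MTZ-treated 7.65-fold lower (95% interval 5.59 to 10.4) than AS and MTZ-preventive 2.37-fold lower (95% interval 1.79 to 3.10). Endothelial Lpl was thus past 2-fold in all 3 comparisons there too. Fabp4 stood at 5151, 10355, 4295 and 7841 CPM there, with AS 2.01-fold higher (95% interval 1.93 to 2.10) and MTZ-treated 2.41-fold lower (95% interval 2.31 to 2.51) than AS, both past the limit. Leaving out cells lowered Fabp4 more in the library labelled Healthy than in AS. The 201 endothelial cells left out there were deeper than the 649 kept (median 3165 against 2241 UMIs). In AS these medians were 1390 and 1314. The part of this unequal choice in the ratios of Fabp4 and Lpl was not tested. Pnpla2 stood at 102, 177, 84.8 and 242 CPM, 1.74-fold higher in AS than in the library labelled Healthy and 2.08-fold lower in MTZ-treated than in AS. Cidec was left with 0, 8, 3 and 19 UMIs, and was 2.99-fold lower (95% interval 1.13 to 7.16) in MTZ-preventive than in AS.

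In macrophages without such markers Lpl stood at 152, 449, 334 and 52.2 CPM, with AS 2.94-fold higher (95% interval 1.61 to 5.63) than the library labelled Healthy, and Fabp4 at 28.6, 2065, 368 and 730.3 CPM, with AS 72.2-fold higher (95% interval 24.3 to 354). Both ratios were past 2-fold there too. This choice of cells does not leave out endothelial markers, and endothelial cells carried much Fabp4. At least 2 endothelial markers were seen in 35.4% of all AS macrophages, against 2.86% in the library labelled Healthy. Their part in the Fabp4 ratio was not tested. Fibroblasts without such markers differed less between libraries. Pnpla2 stood at 36.2, 37.4, 19.1 and 62.8 CPM, with AS 1.03-fold higher (95% interval 0.579 to 1.73) than the library labelled Healthy, and Lipe, Plin2, Plin4, Dgat2 and Fabp4 were likewise within 2-fold. Of these, Lipe, Plin4 and Dgat2 rested on few UMIs in AS, so their counting error is wide. Cidec had 3 UMIs in AS and 2 in the library labelled Healthy, and Pck1 had 0 in both. Lpl was the 1 gene past the limit, at 171, 79.6, 38.2 and 100.1 CPM, with AS 2.15-fold lower (95% interval 1.53 to 3.13) than the library labelled Healthy and MTZ-treated 2.08-fold lower (95% interval 1.40 to 3.01) than AS. The median depth of the kept fibroblasts was 1491, 1442, 1597 and 1911 UMIs against 1408, 1173.5, 1615 and 1494 in those left out.

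**Figure D4:**
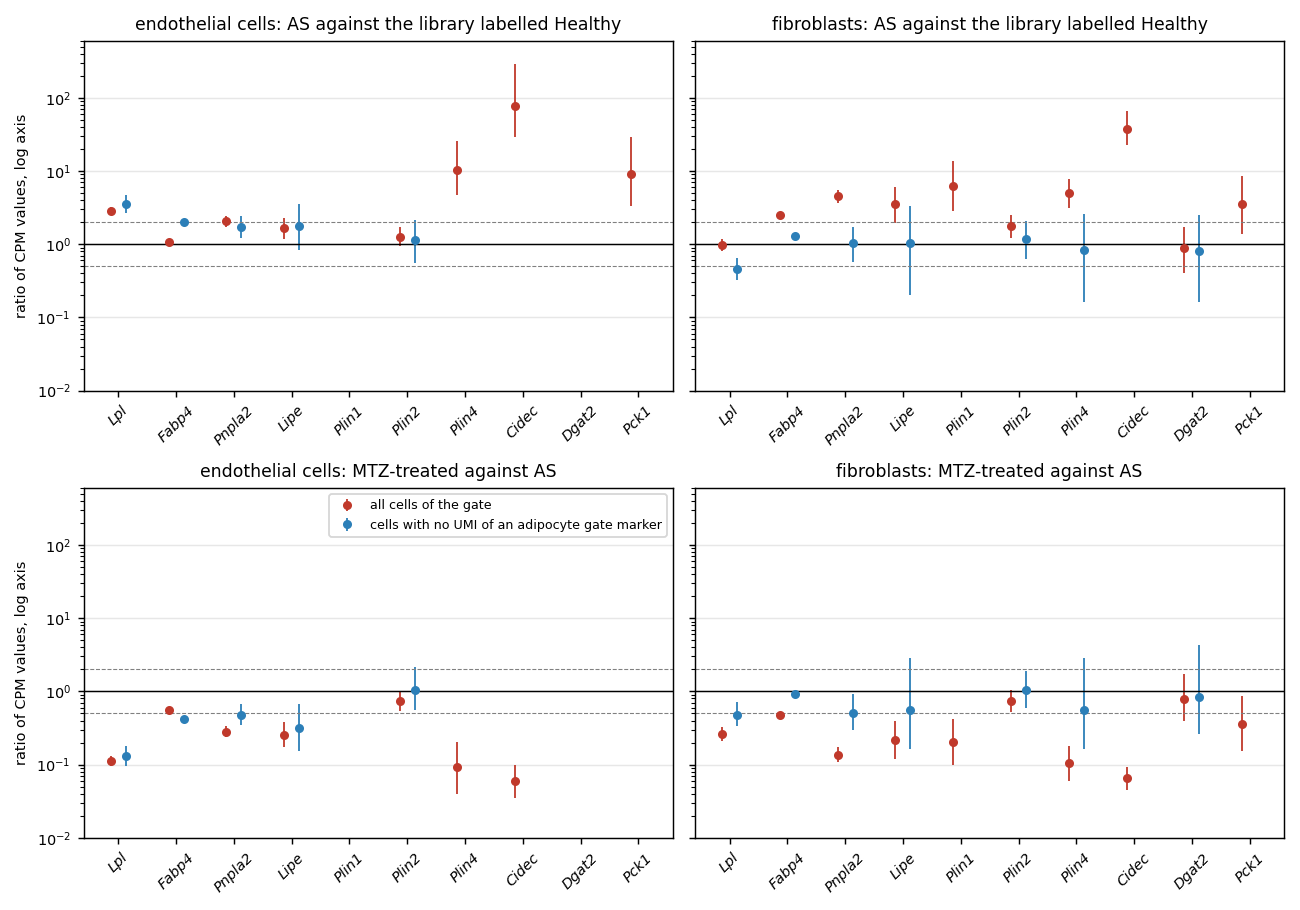
Ratio of CPM between libraries (log axis, dashed lines at 2-fold) for genes with at least 20 UMIs over both libraries, in all cells of the gate (red) and in cells with no UMI of an adipocyte gate marker (blue), with 95% intervals for counting error. In endothelial cells the 2 points for Lpl lie close together in both comparisons, while in fibroblasts the blue points of Pnpla2, Lipe and Plin4 lie near 1 for AS against the library labelled Healthy. Those of Lipe and Plin4 rest on few UMIs in AS.

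The share of cells that carried several of the 10 genes at once was highest in the adipocyte-marker gate. After thinning to 1000 UMIs, at least 4 of the 10 were seen in 84.4%, 70.3%, 33.3% and 64.8% of adipocyte-marker cells, in 1.53%, 6.40%, 0.348% and 8.03% of endothelial cells, in 0.625%, 6.77%, 0.623% and 5.74% of fibroblasts, in 0.411%, 20.2%, 0.148% and 7.59% of smooth muscle cells, in 0%, 8.08%, 0% and 0% of macrophages, and in 0%, 0%, 0% and 0.155% of B, T and NK cells. In AS such cells were 227 in the gate, 31 endothelial cells, 27 fibroblasts and 84 smooth muscle cells, while in MTZ-preventive they were 577 in the gate, 150 endothelial cells, 223 fibroblasts and 237 smooth muscle cells. Most adipocyte-marker cells had a UMI of Cidec, in 68.8, 83.9, 77.8 and 83.3% unthinned and 53.1, 75.2, 77.8 and 63.3% thinned, against 0.0596, 10.0, 0 and 1.55% and 0.0199, 5.00, 0 and 0.827% of B, T and NK cells. Median depths were 1625.5, 1357, 1113.5 and 2159 UMIs in adipocyte-marker cells. Dgat2 was seen in 71.9, 15.8, 50 and 35.4% and Pck1 in 81.2, 27.2, 16.7 and 43.8% of them, with thinned shares of 53.1, 11.5, 27.8 and 13.6% and 62.5, 18, 16.7 and 21.4%, so both shares were lower in AS than in the library labelled Healthy.

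Likeness of pattern was described over 15 values, the 4 classes in 4 libraries without the MTZ-treated adipocyte-marker cells, as Pearson's r of log2(CPM + 1). The values share libraries, and fat cell transcripts were met in classes other than adipocyte-marker cells, so r is given with no test. Among the 10, Plin4 and Cidec were most alike (r = 0.978), then Pnpla2 and Lipe (r = 0.958), and Fabp4 and Plin2 least (r = 0.029). Among 5490 other genes the closest were Mrap to Cidec (r = 0.991) and to Plin4 (r = 0.978), Cidea to Plin1 (r = 0.986), Pcx to Pck1 (r = 0.963), Lrg1 to Fabp4 (r = 0.953), Agpat2 to Dgat2 (r = 0.949), H3f3b to Plin2 (r = 0.926) and Tkt to Lpl (r = 0.856). Lpl was thus the gene with the least close match, and Cidec the one with the closest.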

How the data were processed

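Single-cell RNA was read from the 5-prime end of transcripts in 1 library per group. Per the file headers and the submitters' processing notes, the authors made the deposited UMI counts per gene and cell with Cell Ranger 5.0.0 and STAR on mm10, with replicates pooled as tissue. Cells were kept with over 200 genes, over 1000 UMIs, log10 genes divided by log10 UMIs over 0.7, under 10% mitochondrial and under 5% red blood cell UMIs. Doublets, set at 0.8% per 1000 cells, were taken out by simulated doublets (2 per cell, 60 neighbours, 30 principal components of 2000 variable genes). A cell entered a class when at least 3 of its markers, and more than of any other class, had a UMI. Counts were summed per class and library and given as CPM. Ratios were made for classes with at least 20 cells and genes with at least 20 UMIs over both libraries, and 2-fold was the limit for calling a difference. With 1 library per group there was no test. A gene at 0, or at or below 0 after a level was subtracted, was set to 3 UMIs where a bound is given. A ratio to which such a bound gave no direction was set to 1. Code was tested on simulated data, in Python 3.11.15 with scikit-learn 1.9.0, numpy 2.4.6, pandas 2.3.3, scipy 1.17.1 and matplotlib 3.10.9 and in R 4.3.3, and edgeR 4.0.16 served only for TMM factors as an alternative. Other alternatives changed the limits on cells, doublets, the gate, the totals, the UMI minimum, the B and T cell level and the cells kept. All 10 genes are named. From 6 lists of 46 pathway genes, up to 4 per list with most UMIs in the class were eligible, and patterns were matched by Pearson's r. The genes and lists were chosen with earlier results of these data known. The closest matches of Lipe and Pnpla2 are not reported here. The B and T cell receptor libraries of these samples were not used here.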

Additional observations from a re-analysis of the deposited data

Results flagged for a closer look

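Some genes lay in opposite directions in different classes of the same pair of libraries, AS and the library labelled Healthy. Whether the ratios of the classes differ was not tested, since each class has 1 library per group. Lipe was 3.49-fold higher in fibroblasts of AS and 2.74-fold lower in its adipocyte-marker cells. Plin4 was 10.5-fold higher in endothelial cells and 4.94-fold higher in fibroblasts, against 2.07-fold lower in adipocyte-marker cells. Pck1 was 9.16-fold higher in endothelial cells and 3.55-fold higher in fibroblasts, against 5.52-fold lower in adipocyte-marker cells. In cells with no adipocyte gate marker, Lipe and Plin4 were within 2-fold in fibroblasts, but from so few UMIs in AS that counting error is wide. Pck1 had 0 UMIs in such fibroblasts of both libraries and 2 in such endothelial cells of each.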

How the results depend on the processing

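Of 123 counts of genes past 2-fold under alternatives, 108 were within 1.5 times the count reported and 15 were not. An equal count can hold other genes. In adipocyte-marker cells, AS against the library labelled Healthy, it stayed at 4 with looser limits and as a mean over cells but shared 2 genes with the reported 4 and became 2 higher and 2 lower. In endothelial cells, MTZ-preventive against AS, it stayed at 2 with 0 shared with the B and T cell level subtracted, and with 1 shared as a mean over cells and without adipocyte gate markers. With no UMI of an adipocyte gate marker, chosen after seeing the data, the count in AS against the library labelled Healthy went from 5 to 2 in endothelial cells and from 7 to 1 in fibroblasts, in MTZ-treated against AS from 8 to 1 in fibroblasts, and in MTZ-preventive against AS from 2 to 0 in fibroblasts and from 1 to 2 in macrophages. Of the 2 endothelial genes only Lpl was among the 5 reported. The 1 fibroblast gene in AS against the library labelled Healthy was Lpl, lower and not among the 7 reported. With looser limits on cells the count for MTZ-preventive against AS went from 2 to 0 in endothelial cells and from 1 to 3 in macrophages. That macrophage count was 2 with doublets kept, with at least 2 or at least 4 markers in the gate and with no minimum on UMIs, which also took MTZ-treated against AS from 2 to 7. In adipocyte-marker cells MTZ-preventive against AS went from 0 to 1 as a mean over cells and with under 2 markers of other classes, also chosen after seeing the data. Without the Prg4 or Cxcl13 cells the fibroblast count for that comparison went from 2 to 4. The cause of these moves was not tested. Of 869 ratios re-measured under alternatives, 386 were of ratios past 2-fold as reported, and only these could count as reversed. Of them, 4 reversed. The log2 ratio of Plin4 in adipocyte-marker cells, AS against the library labelled Healthy, went from -1.05 to 0.33 and that of Dgat2 in endothelial cells, MTZ-preventive against AS, from 1.56 to -0.38, both with looser limits. That of Plin4 in fibroblasts, AS against the library labelled Healthy, went from 2.31 to -0.26 without adipocyte gate markers, from few UMIs in AS. That of Pck1 in fibroblasts, MTZ-treated against AS, went from -1.50 to 0.085 with the B and T cell level subtracted, which left AS at the bound of 3 UMIs. TMM factors shifted all log2 ratios by 0.34 in adipocyte-marker cells and 0.11 in fibroblasts for AS against the library labelled Healthy, and in macrophages by 0.13 for MTZ-treated and -0.36 for MTZ-preventive against AS. Of the 386 re-measured values of ratios past 2-fold as reported, 353 stayed past 2-fold on the same side. Each such ratio is counted once per setting. A gene that fell under 20 UMIs in a setting is left out of the 386 and not counted as lost. Adipocyte-marker cells of MTZ-treated (18) and, with under 2 markers of other classes, of the library labelled Healthy (2) gave no comparison. Only with looser limits on cells did MTZ-treated reach 33 adipocyte-marker cells, against 670 in AS. Of 10 genes measured there, Dgat2 was at least 2-fold higher and Pnpla2 at least 2-fold lower than in AS. No share over all genes was computed for that setting. No paired analysis was possible because each group is 1 library. With 1 pool of 6 aortas per group, differences between groups and between pools cannot be told apart, and intervals cover counting error only.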

Other observations

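Smooth muscle cells, which numbered 1702, 416, 2023 and 3123, carried the same genes. Cidec stood at 0.60, 325, 4.21 and 123 CPM there, Pnpla2 at 168, 691, 112 and 490.0 CPM and Lpl at 30.6, 431, 32.0 and 103 CPM, each highest in AS, the library in which Cfd was also highest in these cells at 8.60, 6912, 147 and 3335 CPM. There were 4.70 UMIs of Cidec per 100 of Cfd in AS, near the 3.73 of its adipocyte-marker cells. For Pnpla2 and Lpl these values lay further apart, at 10.0 and 6.24 in smooth muscle cells and 4.22 and 2.86 in adipocyte-marker cells. Plin4, a perilipin also known from muscle, was the most even of them, at 104, 132, 53.5 and 105 CPM, and was present in the library labelled Healthy, where Cidec was at 0.60 CPM. Fabp4 stood at 1577, 5508, 2637 and 3451 CPM in these cells.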
